A study of Mus musculus with 3 samples.

Results

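The genes described here code for enzymes that write, erase or bind chemical marks on histones and DNA, together with their close relatives. They were the protein-coding rows named as Kmt2 to Kmt5, Kdm1 to Kdm8, Setd, Hdac, Sirt, Ezh, Kat, Tet, Dnmt1, Dnmt3 or numbered Brd genes that had an expected count (the read count per gene estimated by RSEM) of at least 30 in at least 1 library. This gave 75 members of 24901 gene rows. The rule found 78 rows by name, and the 3 without enough reads were Dnmt3l, Hdac9 and Kdm5d, with at most 5 expected counts in a library. Just inside the limit stood Kdm4d, with 7, 31 and 28 expected counts in the control, 6 h and 24 h libraries, then Tet1 with 29, 56 and 56 and Hdac11 with 38, 70 and 53. The members were thus chosen by their read counts, and 73 of the 75 had 30 counts in each library. Kdm4d and Tet1 did not, and both had their lowest count in control.

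CH12 is a mouse B lymphoma cell line, and TGFb is a cytokine whose receptors signal through Smad proteins. The control library came from CH12 cells labelled only as control, and the others from CH12 cells given TGFb at 5 ng/ml for 6 h or for 24 h. Each group was 1 library of poly(A) mRNA, so no spread between cultures can be estimated, and no test between groups was run. The labels give no time for the control, so time in culture cannot be told apart from treatment, and CH12 is a single tumour line. In RNA from whole cultures, fewer cells carrying an mRNA and less of it per cell cannot be told apart either.

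Histone lysine methyltransferases add methyl groups that mark active promoters and enhancers, transcribed gene bodies or silent chromatin, and lysine demethylases take them off. Acetyltransferases, deacetylases and sirtuins set histone acetylation, and bromodomain proteins bind acetylated lysines. Dnmt enzymes methylate cytosine in DNA and Tet enzymes oxidise the methyl group, the first step of its removal. In B cells these enzymes are known for their part in germinal centre reactions and lymphoma, where Ezh2, Kmt2d and Tet2 are recurrently mutated.

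The 3 libraries held 51386096, 64229808 and 27487231 counts, and a single count was worth 0.0206, 0.0155 and 0.0345 normalized CPM (counts scaled to library size with TMM factors, which correct for library composition). All 8 B cell markers on the list used were measured, with summed levels of 4079, 3945 and 4829 CPM. Of 7 myeloid markers, 4 were measured and all 4 were at least 2-fold higher at 24 h than in control, with a summed level of 14.7, 27.2 and 50.6 CPM, while Lyz2, Cd14 and Mpo had at most 6 counts in a library. Of 6 fibroblast and endothelial markers, 3 were measured and all 3 were at least 2-fold higher at 24 h, with 3.29, 7.23 and 10.2 CPM in sum, and Col1a2, Col3a1 and Kdr had at most 1 count. Of 6 T cell markers, Cd247 alone was measured, and the list summed to 4.92, 4.20 and 4.17 CPM. The part of these shifts in the values below was not tested.

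Members differed little from control at 6 h and by more at 24 h. A gene counted as apart when it differed at least 2-fold and its higher library reached both 1 CPM and 30 counts. By that rule 74 members were measured among 10754 genes, and Kdm4d was not, since it stayed under 1 CPM. At 6 h, 0 members were higher and 0 lower, against 2.4% and 0.363% of all measured genes. At 24 h, 5 of 74 were higher (Tet1, Kdm5b, Hdac11, Kmt2a and Tet3) and Setd6 alone was lower, which is 6.76% and 1.35% of the members against 7.41% and 2.02% of all measured genes. These shares lay near the background. Between 6 h and 24 h, Tet1 alone was higher and 0 members were lower, against 1.88% and 0.372% of all measured genes.

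Other call rules gave other counts. With the length trend described below removed, 0 members were apart at 6 h (background 2.32% higher and 0.335% lower). At 24 h, 2 were higher and 0 lower (6.98% and 1.5%), and 0 were apart between 6 h and 24 h (1.93% and 0.353%). The 2 were Tet1 and Hdac11, both scarce in each library, while Kdm5b fell just short of the limit. With a limit of 1.5-fold, 2 members were higher and 0 lower at 6 h (6.77% and 2.14%), 18 higher and 5 lower at 24 h (16.8% and 11.8%), and 3 higher and 1 lower between the times (6.36% and 2.11%). With total counts, 0 members were apart at 6 h (2.94% and 0.27%), 8 were higher and 0 lower at 24 h (10% and 1.1%), and 1 was higher and 0 lower between the times (2.27% and 0.289%). With TPM, and a minimum of 1 TPM in place of 1 CPM, 0 members were apart at 6 h (3.08% and 0.21%). At 24 h, 11 of 73 were higher and 0 lower (11.3% and 0.734%), and 0 were apart between the times (1.92% and 0.276%). Tet1, with at most 0.24 TPM, fell below that minimum and was left out. Its TPM at 24 h was 4-fold that of control and 2.4-fold that at 6 h. At 1.5-fold, the 18 members make 24.3% of the members, above the 16.8% of all measured genes, and the 5 lower ones make 6.76%, below 11.8%.

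Smaller differences lay more often above control than below it. At 6 h 62.2% of the measured members were above control and at 24 h 66.2%, against 49.3% and 49.0% of all measured genes. Of the 74 measured members, 45 were above control at both times and 24 below it at both, and 39 stood higher at each step from control to 6 h to 24 h while 21 stood lower at each step. The median log2 ratio to control was 0.10 at 6 h and 0.21 at 24 h (0.098 and 0.19 without Tet1), where the median over all measured genes was -0.0046 and -0.011. Both comparisons use the same control library, so a direction shared by both times is not independent evidence. Total counts and the deposited TPM (a level corrected for transcript length) place the median gene 0.16 and 0.26 higher at 24 h than TMM scaling does on the log2 scale, and 0.082 and 0.16 higher at 6 h. With TPM, and for most of them with total counts too, the direction against control turned at 24 h for 10 members (Brd2, Brd7, Brd9, Hdac3, Kat5, Kdm1a, Setd1a, Setd3, Sirt1 and Sirt7). At 6 h it turned with TPM for 16 (Brd1, Brd2, Brd7, Brd9, Dnmt3b, Hdac3, Hdac4, Kat8, Kdm2b, Setd1a, Setd3, Setd4, Setdb1, Sirt1, Sirt2 and Sirt4).

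**Figure D1:**
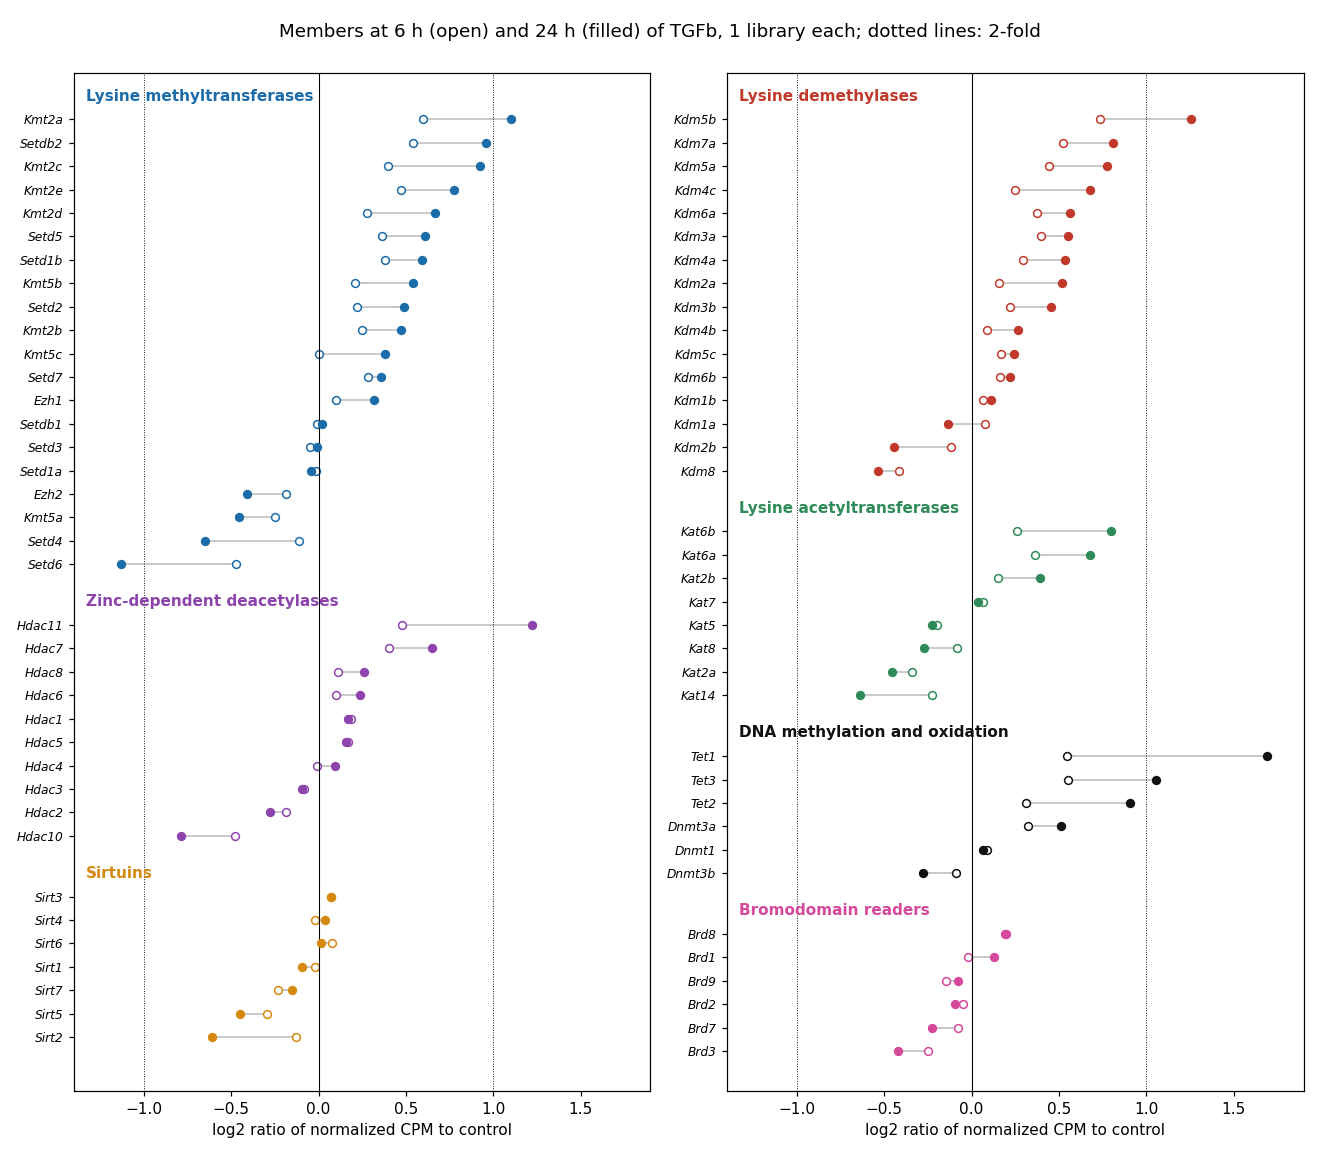
Log2 ratio of normalized CPM to control (x axis) for 73 of the 74 measured members (rows, by class) at 6 h (open circles) and 24 h (filled circles), 1 library each. Filled circles past the dotted 2-fold lines are Tet1, Kdm5b, Hdac11, Kmt2a and Tet3 on the right and Setd6 on the left.

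Levels between members span a wide range and are compared in TPM. In control, Hdac1 was the most abundant member with 310.1 TPM, followed by Brd2 with 159.9, the methyltransferase Kmt5a with 150.3 and Dnmt1 with 141. Ezh2 (117), Kdm2b (110.2) and Kdm1a (102) were of like abundance. Kat2a was the most abundant acetyltransferase with 76 TPM and Sirt2 the most abundant sirtuin with 72.9. At the low end stood Kat2b with 2.35 TPM, Kdm5b with 1.3, Hdac11 with 0.5 and Tet1 with 0.06. Of the 5 members at least 2-fold higher at 24 h, Tet1, Hdac11 and Kdm5b were among the scarcest in control.

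Transcript length went with these ratios. Members had a median transcript length of 4594 bases, against 2847 for all measured genes. Across the 74 members, Spearman's rho between length and the log2 ratio was 0.68 at both 6 h and 24 h, and across all measured genes it was 0.40 and 0.39. These are correlations across genes that share the same 3 libraries, given as a description. The long Kmt2 and Tet transcripts stood high, and the short Setd6, Sirt2 and Setd4 transcripts stood low.

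In transcripts of at least 8000 bases, all 15 members were above control at 24 h, with a median log2 ratio of 0.68, and 3 of 15 were at least 2-fold higher, Tet1 among them. All 418 measured genes of that length had a median of 0.53, and 16.0% of them were at least 2-fold higher. In transcripts under 2000 bases, 5 of 12 members were above control, with a median of -0.19, where all 3168 such genes had -0.28. Between 2000 and 4000 bases the order was the opposite, with 4 of 18 members above control and a median of -0.18 against -0.020 for 4517 genes.

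A length trend was therefore taken off as an alternative, by subtracting the median ratio of genes of like length. The median of the members at 24 h then was 0.031, with 43 members above the trend and 31 below, and at 6 h it was 0.013, with 39 above and 35 below. For the rest of the text, a value "against the length trend" is this log2 ratio with the trend removed. Of the members, 11 were longer than the median of the longest length bin, past which the trend is held flat. It may therefore take too little off Kmt2a, Kmt2c, Kmt2d, the Tet genes and others past that length.

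**Figure D2:**
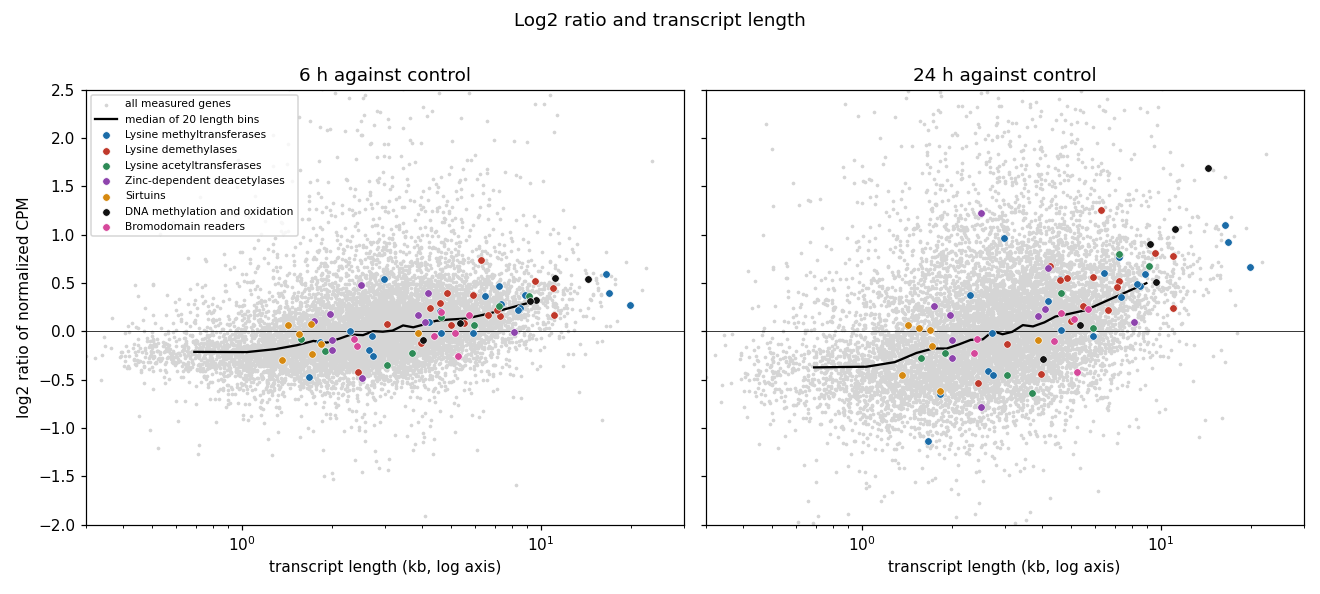
Log2 ratio of normalized CPM against transcript length in kb (log axis) at 6 h (left) and 24 h (right), with all 10754 measured genes in grey (those outside the axis limits are not drawn), the medians of 20 length bins as a line and members coloured by class. Members spread along the rising line, with rho of 0.68 in both panels.

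Classes were set by gene name, so a class title need not hold for every member (Setd3, among the lysine methyltransferases, methylates actin). By class, the median log2 ratio at 24 h was 0.71 for the 6 DNA methylation and oxidation enzymes, 0.49 for the 16 measured lysine demethylases and 0.43 for the 20 lysine methyltransferases. Tet1 passed the count limit through the treated libraries alone, and the other 5 DNA enzymes had a median of 0.51, near that of the demethylases. Zinc-dependent deacetylases had 0.16 (10 members). Acetyltransferases (-0.093, 8 members), sirtuins (-0.092, 7 members) and bromodomain readers (-0.076, 7 members) lay just below 0, and all 3 were above 0 with total counts and with TPM. The 3 classes with the highest medians also had the longest transcripts, with a median of 9404 bases for the DNA enzymes, 5714 for demethylases and 5278 for methyltransferases, then 4632 for bromodomain readers, 4170.5 for acetyltransferases, 2501 for deacetylases and 1694 for sirtuins. With the length trend removed, the 7 class medians at 24 h ran from -0.067 to 0.21, and the sirtuin median was 0.027. The upper end is the DNA enzymes, whose median without Tet1 was 0.013, and the range then ended at 0.12, the median of the demethylases. The differences between classes have no replicate check.

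**Figure D3:**
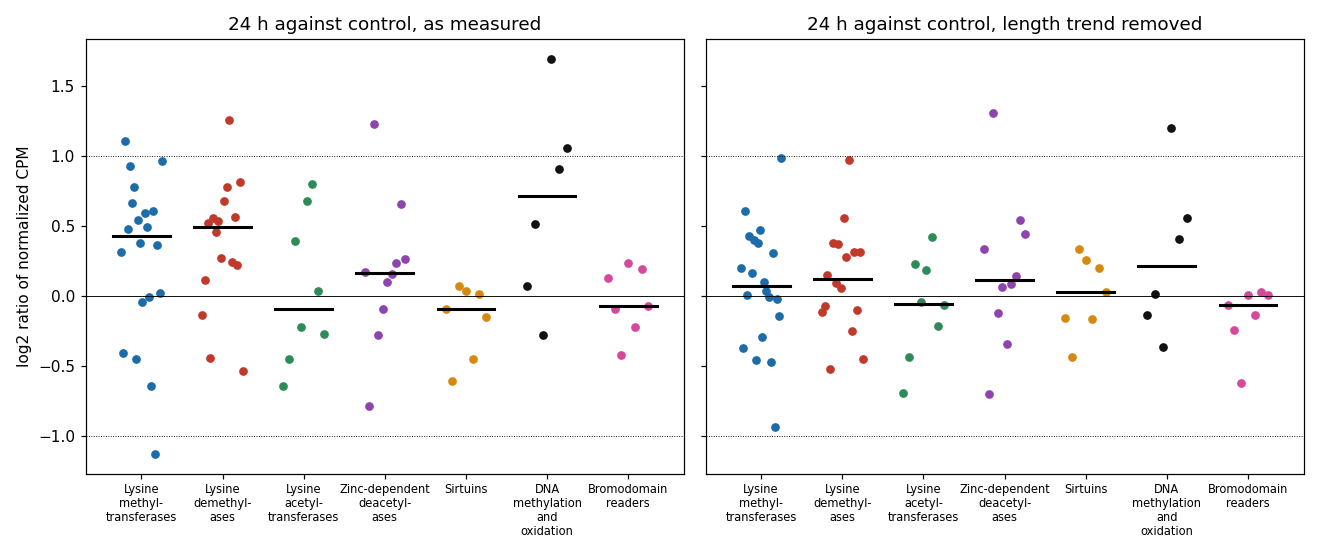
Log2 ratio of normalized CPM at 24 h against control for each measured member by class, as measured (left) and with the length trend removed (right), with bars at the class medians and dotted lines at 2-fold. The bars run from -0.093 to 0.71 on the left and from -0.067 to 0.21 on the right, where both upper ends are the DNA enzymes with Tet1 (0.51 and 0.013 without it).

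The lysine methyltransferases included the Kmt2 family, which holds enzymes that methylate histone H3 at promoters and enhancers. Kmt2a, a methyltransferase of active promoters (chromosome 9, 44803355 to 44881352), had 98.8, 149 and 212 CPM in the control, 6 h and 24 h libraries, the order used throughout. It was 1.51-fold higher (interval 1.46 to 1.57) than control at 6 h and 2.15-fold higher (interval 2.07 to 2.23) at 24 h. The interval is the exact conditional 95% interval (Clopper-Pearson) of the ratio of counts. It covers counting error only and no spread between cultures, since each group was 1 library. PCR copies of a molecule cannot be told from other reads here, and the interval takes them as separate counts. The Kmt2a transcript of 16444 bases is among the longest of the members, and against the length trend Kmt2a stood at 0.61 at 24 h.

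The other Kmt2 genes were also above control. Kmt2c, which with Kmt2d marks enhancers, had 51.3, 67.7 and 97.6 CPM and was 1.9-fold higher (interval 1.8 to 2.01) at 24 h. Kmt2d (chromosome 15, 98831669 to 98874077), the longest member with 19827 bases, had 145, 176 and 230.4 CPM and was 1.59-fold higher (interval 1.53 to 1.64). Against the length trend Kmt2d stood at -0.015 at 6 h and 0.17 at 24 h, and at 24 h a trend with 100 bins in place of 20 removed its difference. Kmt2b, the close relative of Kmt2a, was 1.39-fold higher and lay on the trend (0.007). Kmt2e, which binds methylated H3, was 1.71-fold higher and stood at 0.40 against the trend, but part of its reads were shared with another gene.

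Partner subunits of the Kmt2 and Setd1 enzymes were mostly below control. Of 12 measured COMPASS partners, core and other subunits of these complexes, 2 were above control at 24 h and 0 were at least 2-fold apart. Among all measured genes, 7.41% were higher and 2.02% lower by that limit, so 0 in so short a list says little. The median log2 ratio of this mixed list was -0.21, which was 0.062 with TPM. Wdr5, a core subunit, had 119.7, 92.8 and 74.9 CPM and was 1.6-fold lower (interval 1.52 to 1.68) at 24 h. Setd1a, a methyltransferase of COMPASS, had 191, 189 and 186 CPM, and its counting intervals held a ratio of 1 at both times. Its paralog Setd1b had 82.3, 107 and 124 CPM and was 1.51-fold higher, 0.10 against the length trend.

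Silencing enzymes were split. Ezh2, the catalytic subunit of Polycomb repressive complex 2 in dividing cells (chromosome 6, 47530274 to 47595270), had 197, 173 and 148 CPM and was 1.33-fold lower (interval 1.28 to 1.37) at 24 h. Its paralog Ezh1, which prevails in resting cells, had 14, 15 and 17.4 CPM and was 1.24-fold higher (interval 1.11 to 1.4). Per length, Ezh2 stayed far above Ezh1, with 117, 115 and 106 TPM against 5.12, 6.11 and 7.65 TPM. The direction of both at 24 h held under each scaling tried and against the length trend. Of 24 measured Polycomb partners, 14 were above control at 24 h and 0 at least 2-fold apart (7.41% of all measured genes were higher and 2.02% lower). Their median was 0.013 at 24 h and -0.10 against the length trend. Phc3, a subunit of Polycomb repressive complex 1, stood furthest from control in that list at 24 h, with a log2 ratio of 0.73.

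Setdb2, a relative of the H3 methyltransferase Setdb1 (chromosome 14, 59402009 to 59440880), was the member with ample counts that stood furthest above the length trend at 24 h. It had 35, 51 and 68.2 CPM, 1.46-fold higher (interval 1.37 to 1.54) at 6 h and 1.95-fold higher (interval 1.82 to 2.08) at 24 h, just under the limit of 2-fold. With a transcript of 2989.6 bases it stood at 0.54 and 0.99 against the trend. Setdb1 had 106, 105 and 107 CPM, and its counting intervals held a ratio of 1 in each comparison.

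The histone H4 methyltransferases also diverged. Kmt5a, which adds the first methyl group to H4 and peaks in dividing cells, had 261, 219.7 and 191 CPM and was 1.37-fold lower (interval 1.33 to 1.41) at 24 h. Kmt5b and Kmt5c, which add further methyl groups, had 31.8, 36.8 and 46.3 CPM and 49.99, 50.2 and 65 CPM. They were 1.46-fold higher and 1.3-fold higher at 24 h, 0.38 and 0.47 against the length trend. Kmt5b also had a mean transcript length, as RSEM weighs its isoforms, that moved from 4463 bases in control to 4675 at 6 h and 4637 at 24 h, which was the largest such shift among the members between control and 6 h.

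**Figure D4:**
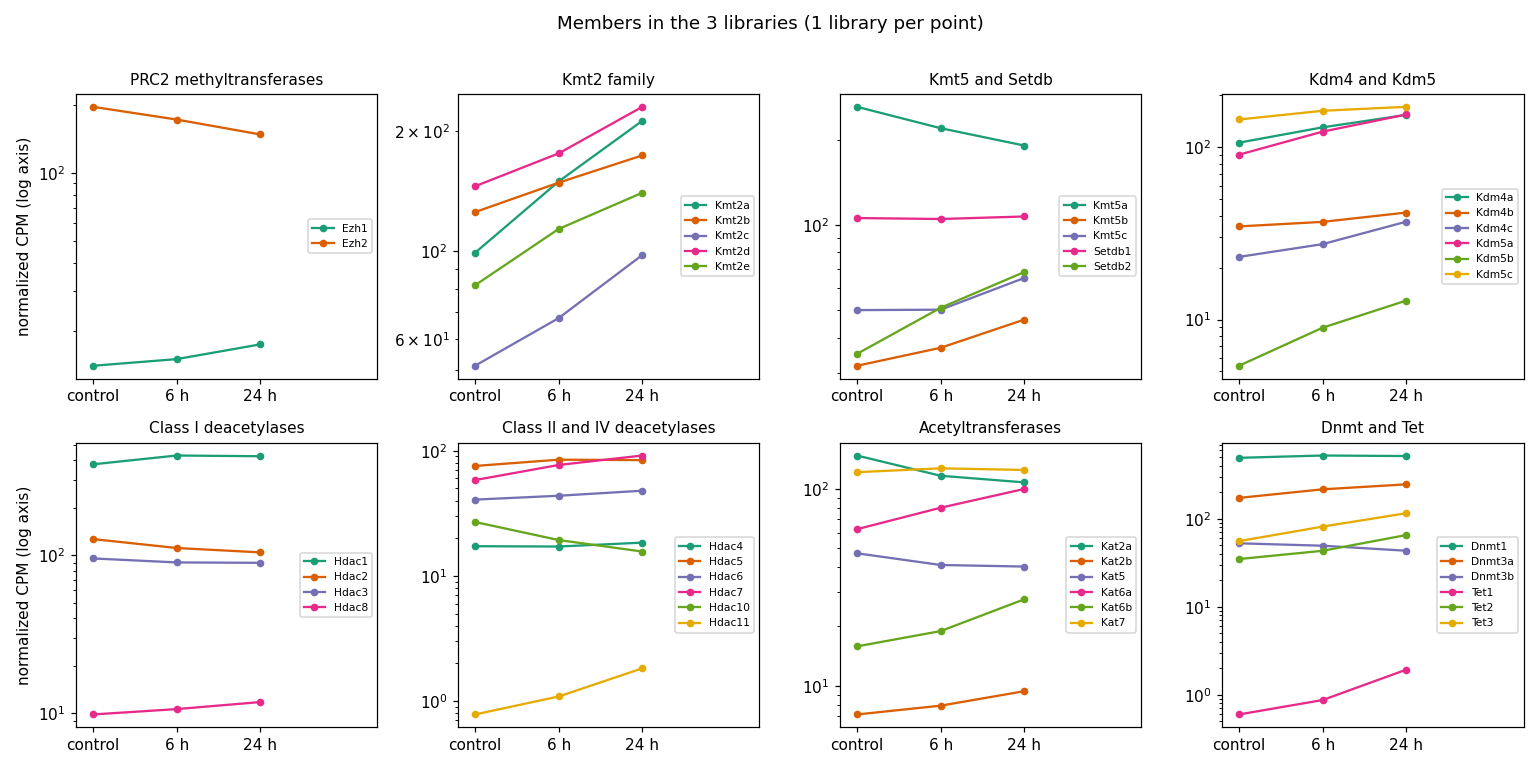
Normalized CPM (log axes that differ between panels) of members in the control, 6 h and 24 h libraries, 1 library per point, in 8 families. Ezh2, Kmt5a and Kat2a slope down while Ezh1, Setdb2, Tet2 and Tet3 slope up; CPM is not corrected for length, so heights are not compared between genes.

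Setd6, an enzyme known to methylate the NF-kB subunit RelA, was the 1 member at least 2-fold lower. It (chromosome 8, 95715634 to 95721507) had 29.2, 21.1 and 13.4 CPM, 1.38-fold lower (interval 1.28 to 1.49) at 6 h and 2.19-fold lower (interval 1.95 to 2.45) at 24 h. Its transcript has 1669 bases, and it stood at -0.94 against the length trend, so it was no longer past 2-fold with the trend removed, nor with total counts or TPM, though still below control. Setd4 had 6.05, 5.6 and 3.86 CPM and was 1.57-fold lower (interval 1.26 to 1.97) at 24 h.

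Other Setd genes were above control or level with it. Setd2, the methyltransferase of transcribed gene bodies, had 119, 138 and 167 CPM and was 1.41-fold higher (interval 1.35 to 1.46), which is what genes of its length showed (0.034). Setd5 had 179.5, 231 and 274 CPM and was 1.52-fold higher, 0.30 against the trend. Setd7 was 1.28-fold higher and lay just under the trend (-0.023). Setd3, which methylates actin, had 102, 98.2 and 101 CPM, and its counting intervals held a ratio of 1.

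Demethylases were mostly above control. Of 16 measured, 14 were above control at 6 h and 13 at 24 h, and against the length trend 10 of 16 stood above it at 24 h. Kdm5b, which removes methyl groups from H3 at promoters (chromosome 1, 134560178 to 134632878), had 5.39, 8.97 and 12.9 CPM, 1.66-fold higher (interval 1.44 to 1.93) at 6 h and 2.39-fold higher (interval 2.04 to 2.81) at 24 h. It was the highest of the class by the ranking on CPM + 1 in each comparison, at 0.97 against the length trend. Its paralogs Kdm5a and Kdm5c had 90.6, 123 and 155 CPM and 145, 163 and 172 CPM. Kdm5a was 1.71-fold higher at 24 h, with some shared reads, and Kdm5c 1.18-fold higher, below the trend at -0.25. Per length Kdm5b remained the lowest of the 3 at 24 h, with 3.73 TPM against 25.4 and 28.1.

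The Kdm4 enzymes, which act on H3 marks of silent and of transcribed chromatin, stood above control at both times. Kdm4a had 106, 131 and 154 CPM and was 1.45-fold higher (interval 1.39 to 1.51) at 24 h. Kdm4c (chromosome 4, 74242497 to 74405864) had 23.1, 27.4 and 37 CPM and was 1.6-fold higher (interval 1.47 to 1.74), at 0.56 against the trend. Kdm4b was 1.2-fold higher at 24 h, but at 6 h its counting interval held a ratio of 1 and it lay under the length trend (-0.044). Kdm4d, a paralog best known from testis, had 0.144, 0.482 and 0.965 CPM from 7, 31 and 28 counts, and stayed under 1 CPM, so its difference is not counted.

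The demethylases of the Polycomb mark were above control too. Kdm6a, on the X chromosome, had 37.2, 48.2 and 54.9 CPM and was 1.48-fold higher (interval 1.38 to 1.58) at 24 h. Kdm6b, an inducible paralog, had 45, 50.5 and 52.4 CPM and was 1.16-fold higher, which lay under the length trend (-0.11). Other demethylases stood above control as well. Kdm7a was 1.75-fold higher at 24 h, Kdm3a 1.47-fold higher, Kdm3b 1.37-fold higher and Kdm2a 1.43-fold higher. Against the length trend they stood at 0.31, 0.38, 0.094 and 0.14, and at 6 h Kdm2a lay under it (-0.056).

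Other members of the class lay below control or near it. Kdm2b, which binds unmethylated CpG islands and recruits Polycomb complexes, had 284, 262 and 209 CPM and was 1.36-fold lower (interval 1.32 to 1.4) at 24 h, where its paralog Kdm2a was above control. At 6 h TPM placed Kdm2b above control. Kdm8, a JmjC protein, had 15.8, 11.9 and 10.9 CPM and was 1.45-fold lower (interval 1.27 to 1.66) at 24 h, and it was the lowest of the class by the ranking on CPM + 1 at both times against control. Kdm1a, the flavin-dependent demethylase also known as LSD1 (chromosome 4, 136550533 to 136602787), had 199, 209.9 and 182 CPM, above control at 6 h and below it at 24 h, the latter above control with total counts and TPM. Kdm1b, its paralog, had 25.3, 26.5 and 27.4 CPM, with some shared reads, and its counting intervals held a ratio of 1.

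DNA modifying enzymes were led by the Tet genes. Tet3 (chromosome 6, 83362373 to 83457208) had 55.8, 81.7 and 116 CPM, 1.46-fold higher (interval 1.4 to 1.53) at 6 h and 2.08-fold higher (interval 1.98 to 2.19) at 24 h. Tet2 (chromosome 3, 133463677 to 133545136), the Tet gene most often mutated in blood cancers, had 34.9, 43.4 and 65.5 CPM, 1.24-fold higher (interval 1.17 to 1.32) at 6 h and 1.88-fold higher (interval 1.76 to 2) at 24 h. Against the length trend Tet3 and Tet2 stood at 0.56 and 0.41 at 24 h, and at 0.26 and 0.022 at 6 h. The Tet transcripts all lie past the point where the trend is held flat, so it may take too little off them. Tet1 was scarce, with 29, 56 and 56 expected counts and 0.597, 0.871 and 1.93 CPM, and was 3.23-fold higher (interval 2.03 to 5.25) at 24 h. Tet1 passed the count limit through the treated libraries only, and with Tet1 left out 4 members were at least 2-fold higher at 24 h and 0 at 24 h against 6 h. Per length Tet3 and Tet2 were of like abundance, with 7.56, 12.3 and 18.7 TPM and 5.73, 7.93 and 12.9 TPM, and Tet1 had 0.06, 0.1 and 0.24 TPM.

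The methyltransferases of DNA differed among themselves. Dnmt1, which copies methylation after replication, had 495, 526 and 519 CPM and was 1.05-fold higher at 24 h, below the length trend at -0.14. Dnmt3a, which sets new methylation (chromosome 12, 3801559 to 3914443), had 173, 217 and 247 CPM and was 1.43-fold higher (interval 1.38 to 1.47) at 24 h, which is what genes of its length showed (0.013). Dnmt3b, the other such enzyme, had 52.8, 49.5 and 43.4 CPM and was 1.21-fold lower (interval 1.14 to 1.3), a direction that held at 24 h under each scaling tried, while at 6 h TPM placed it above control. Dnmt3a has an antisense neighbour, Dnmt3aos, and since the strand setting is unknown, reads of both cannot be told apart.

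Of 14 measured partners of DNA methylation, 1 was at least 2-fold higher at 6 h and 2 at 24 h, and 0 were lower. Among all measured genes, 2.4% were higher at 6 h and 7.41% at 24 h. Counts in so short a list rest on single genes. Uhrf2, a relative of the Dnmt1 cofactor Uhrf1, had 50.6, 104 and 85.6 CPM and was 2.06-fold higher (interval 1.96 to 2.16) at 6 h. Zbtb4 and Zbtb38, zinc finger proteins that bind methylated DNA, had 8.41, 13.6 and 21.6 CPM and 45.4, 70.8 and 94 CPM, 2.57-fold higher and 2.07-fold higher at 24 h. The median of that list was 0.21 at 24 h, or 0.17 against the length trend. Uhrf1 itself had 480.4, 497 and 446 CPM.

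Of 8 acetyltransferases, 4 were above control at 24 h and 4 below it. Kat6a and Kat6b, paralogs with long transcripts that acetylate histone H3, had 62.4, 80.3 and 100.05 CPM and 15.8, 18.9 and 27.5 CPM. Kat6a was 1.6-fold higher (interval 1.52 to 1.69) and Kat6b 1.74-fold higher (interval 1.57 to 1.92) at 24 h, at 0.18 and 0.42 against the length trend. Kat2a, the catalytic subunit of the SAGA coactivator (chromosome 11, 100704746 to 100712485), had 148, 117 and 108 CPM and was 1.37-fold lower (interval 1.31 to 1.43) at 24 h. Its paralog Kat2b had 7.14, 7.91 and 9.37 CPM and was 1.31-fold higher (interval 1.12 to 1.54), though per length it remained far lower, with 3.71 TPM at 24 h against 66.7 for Kat2a. Both directions held at 24 h under each scaling tried and against the length trend.

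Kat14, a subunit of the ATAC coactivator that also holds Kat2a, had 76.4, 65.2 and 49 CPM and was 1.56-fold lower (interval 1.47 to 1.66) at 24 h, the lowest of the class, with part of its reads shared with another gene. Kat5, the catalytic subunit of the Tip60 complex, had 47.1, 41.1 and 40.3 CPM and was 1.17-fold lower, and Kat8, which acetylates histone H4, 1.21-fold lower. Kat5 was above control at 24 h with TPM. Kat7 had 122, 127 and 125 CPM. Of 26 measured partners of these enzymes, 13 were above control at 24 h and 13 below. By the 2-fold limit 0 were apart, against 7.41% higher and 2.02% lower of all measured genes. The median was 0.0055, or -0.026 against the length trend. Trrap, a scaffold of the SAGA and Tip60 complexes, ranked first on CPM + 1, with a log2 ratio of 0.68.

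The class I deacetylases, the nuclear enzymes of large corepressor complexes, stayed within 1.5-fold of control. Hdac1 had 378, 429.6 and 425 CPM and was 1.13-fold higher (interval 1.1 to 1.15) at 24 h, and per length it was the most abundant member, with 310.1, 394 and 419.8 TPM. Hdac2 had 127, 111 and 105 CPM and was 1.21-fold lower (interval 1.16 to 1.27), and Hdac3 had 95.8, 90.3 and 89.8 CPM, below control at 24 h, but above it with TPM, with total counts and against the length trend. Hdac8, on the X chromosome, had 9.83, 10.6 and 11.8 CPM and was 1.2-fold higher. Of 25 measured corepressor partners of these deacetylases, 13 were above control at 24 h, with a median of 0.23 and of 0.050 against the length trend. None was at least 2-fold apart, against 7.41% higher and 2.02% lower of all measured genes. Gatad2b, a subunit of the NuRD corepressor, stood furthest out, at 0.96.

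The other zinc-dependent deacetylases spread more widely. Hdac7, a class IIa enzyme of lymphocytes (chromosome 15, 97792661 to 97844502), had 58.2, 76.9 and 91.5 CPM, 1.32-fold higher (interval 1.26 to 1.38) at 6 h and 1.57-fold higher (interval 1.49 to 1.66) at 24 h, and stood at 0.54 against the length trend. Its relatives Hdac5 and Hdac4 had 75.5, 84.8 and 84.1 CPM and 17.3, 17.2 and 18.4 CPM. Hdac6, which acts on tubulin in the cytoplasm, was 1.18-fold higher. Hdac10, known as a polyamine deacetylase, had 27, 19.3 and 15.6 CPM, 1.39-fold lower (interval 1.29 to 1.51) at 6 h and 1.72-fold lower (interval 1.55 to 1.92) at 24 h, at -0.70 against the trend. Hdac11, the class IV enzyme, had 0.782, 1.09 and 1.83 CPM from 38, 70 and 53 counts and was 2.34-fold higher (interval 1.51 to 3.64) at 24 h.

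Sirtuins, the deacylases that use NAD, stood near control or below it. Sirt2, mostly cytoplasmic, had 81.8, 74.8 and 53.5 CPM and was 1.53-fold lower (interval 1.44 to 1.62) at 24 h. Sirt5, a mitochondrial sirtuin, had 3.44, 2.8 and 2.52 CPM and was 1.37-fold lower (interval 1.03 to 1.82). Sirt1, the best known nuclear sirtuin, had 44.3, 43.7 and 41.5 CPM, and its counting intervals held a ratio of 1 at both times. Sirt7 was 1.11-fold lower at 24 h, but above control with TPM, with total counts and against the length trend. The counting intervals of Sirt3, Sirt4 and Sirt6 held a ratio of 1 at both times as well. All 7 sirtuin transcripts lay between 1362 and 3885 bases, and 4 of 7 stood above the length trend at 24 h.

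Of 7 bromodomain readers, 3 were above control at 24 h and 4 below it. Brd2, the most abundant of them per length, had 455, 439 and 426 CPM, just below control, and above it with total counts and TPM. Brd3, a close relative of Brd2, had 90.4, 76 and 67.4 CPM and was 1.34-fold lower (interval 1.27 to 1.41) at 24 h, at -0.62 against the trend. Brd7 and Brd9, subunits of SWI/SNF remodellers, were 1.17-fold lower and 1.05-fold lower at 24 h, both above control with TPM, and Brd9 with total counts and against the length trend too. Brd1, a scaffold of acetyltransferase complexes, was 1.09-fold higher, and Brd8 of the Tip60 complex 1.14-fold higher, with shared reads.

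Enzymes of the same kinds whose names fall outside the rule were listed beside the members. Of 37 measured, 16 were above control at 24 h and 21 below. By the 2-fold limit 1 was higher and 0 lower, against 7.41% and 2.02% of all measured genes. The median log2 ratio was -0.15, which was above 0 with total counts (0.013) and TPM (0.12). Jmjd1c, a JmjC protein related to Kdm3a and Kdm3b, had 116, 184 and 232 CPM and was 2-fold higher (interval 1.93 to 2.07) at 24 h. Ep300 and Crebbp, the large acetyltransferases that work with Smads and many other factors, had 99.99, 152 and 189 CPM and 49.3, 58.7 and 77.2 CPM. They were 1.89-fold higher and 1.56-fold higher at 24 h, at 0.43 and 0.25 against the length trend. The arginine methyltransferase Prmt5 ranked first of them between 6 h and 24 h, at -0.45.

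Of the partner lists, those ranked first at 6 h were Dpy30 of COMPASS (-0.40), Brpf3 of acetyltransferase complexes (0.52), the corepressor subunit Tbl1xr1 (0.69) and Phc3 (0.50). From 6 h to 24 h they were the Polycomb subunit Pcgf5 (-0.64), the corepressor subunit Sap30 (-0.51) and Tada2a of SAGA-like complexes (-0.36).

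Between 6 h and 24 h of TGFb, the 74 members had a median log2 ratio of 0.078, with 46 higher at 24 h. Setd6 had a log2 ratio of -0.66, Setd4 -0.54 and Sirt2 -0.48, the lowest values, and Tet1 1.15, Hdac11 0.75 and Tet2 0.60, the highest. For Hdac1, Dnmt1, Hdac5 and Brd8 the counting interval of 24 h against 6 h held a ratio of 1, and its sign was the opposite with TPM and with total counts. All 4 were above control at both times as measured, but Dnmt1 lay below the length trend at both and Brd8 at 24 h below a trend with 100 bins. Kat2a was 1.27-fold lower at 6 h and 1.08-fold lower from then to 24 h. In Kmt2c, Tet2 and Kat6b the step from 6 h to 24 h was the larger on the log2 scale, with 0.53, 0.60 and 0.54 after 0.40, 0.31 and 0.26.

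The series concerns Smad binding, so the 250 bases upstream of the RefSeq starts were searched for the Smad box CAGACA and for the palindrome GTCTAGAC, each on both strands. Of the 75 members, 61 had a promoter entry. A gene with several starts counted when any of them held the motif. CAGACA was present in 5 of these members (8.20%), against 19.3% of the 27025 genes with an entry, measured or not. GTCTAGAC was present in Sirt6 alone (1.64%), against 0.200% of those genes. The upstream bases of members had a median GC content of 62.8%, against 52.4% for all genes. The 5 with CAGACA were Kdm4c, Hdac7 and Hdac11, above control at 24 h, and Kat2a and Kdm2b, below it. Kdm4c, Hdac7 and Kdm2b each have further starts, and none of those held CAGACA. A match is a description of the letters and not a measured site. The sequences of Kdm4c, Hdac7 and Kat2a follow as examples from both directions, from RefSeq on GRCm38.p6, 5′ to 3′ on the gene's strand, with the CAGACA box or its reverse complement in capitals. Kdm4c lies at chr4:74242247-74242496, plus strand, Hdac7 at chr15:97831496-97831745, minus strand and Kat2a at chr11:100712468-100712717, minus strand, and the entries of Hdac7 and Kat2a are starts inside the span of the gene given above.
Kdm4c: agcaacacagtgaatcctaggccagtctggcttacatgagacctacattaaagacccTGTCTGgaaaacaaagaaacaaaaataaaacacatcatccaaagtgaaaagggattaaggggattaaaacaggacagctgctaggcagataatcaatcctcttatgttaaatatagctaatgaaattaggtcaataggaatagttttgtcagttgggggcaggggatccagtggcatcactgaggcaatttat
Hdac7: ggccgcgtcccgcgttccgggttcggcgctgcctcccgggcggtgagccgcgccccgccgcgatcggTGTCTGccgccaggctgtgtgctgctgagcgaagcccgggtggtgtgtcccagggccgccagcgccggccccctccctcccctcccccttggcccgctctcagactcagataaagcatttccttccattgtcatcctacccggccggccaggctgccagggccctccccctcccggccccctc
Kat2a: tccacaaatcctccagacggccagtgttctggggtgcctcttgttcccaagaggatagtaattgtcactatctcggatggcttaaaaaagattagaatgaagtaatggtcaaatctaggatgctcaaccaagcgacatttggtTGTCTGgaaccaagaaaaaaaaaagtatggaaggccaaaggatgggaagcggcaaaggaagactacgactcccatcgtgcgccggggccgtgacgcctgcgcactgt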

How the data were processed

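The submitters quantified 3 mRNA libraries of CH12 cells. Their processing notes list mm10 as the build, and as tools bedtools, RSEM, STAR and CASAVA 1.8.2, while annotation and strand setting were not given in the sources used here. Expected counts from RSEM were deposited by the authors and rounded to whole numbers here. TPM values deposited by the authors served as an alternative and for levels between genes. The deposited FPKM values served no purpose here. Per the file headers, transcript lengths are given for each gene and library, and their mean over the libraries was used.

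Counts were scaled by TMM factors (0.9459, 1.0015 and 1.0556 for control, 6 h and 24 h) from edgeR 4.0.16 in R 4.3.3. Tried in their place were TPM, total counts, upper quartile scaling, size factors of DESeq2 1.42.0, no minimum CPM, a minimum of 5 CPM, a ratio of CPM + 1, a limit of 1.5-fold and removal of the length trend, which is the median log2 ratio in 20 length bins, interpolated. A count of 0 was set to 3 counts. Totals ranged from 27487231 to 64229808 counts. No edgeR or DESeq2 test was run, since each group had 1 library. The size rule was tried on simulated counts with an assumed spread between libraries. The genes set apart in those counts had at least 5 CPM in control, so the simulation does not cover genes as scarce as Tet1 and Hdac11. The trend removal was run on made-up ratios with a straight slope in length plus noise. Medians of length bins take off such a slope by design, so that run only checked the code.

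Members, classes and gene lists were chosen with earlier results of these data known. Values were given for a fixed set of well known members, every member at least 2-fold apart, the highest and lowest member of each class in each comparison by the ratio of CPM + 1, and members nearest the count limit, and other members were added after their values were seen. Of each partner list, the genes at least 2-fold apart were named, or else the gene furthest from control. Ep300, Crebbp and Uhrf1 were added after their values were seen. The values of 1 member are not reported here. Positions are those of RefSeq on GRCm38.p6, the assembly of mm10, matched by transcript accession for all 75 members.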

Additional observations from a re-analysis of the deposited data

Results flagged for a closer look

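Kdm1a differed from control in opposite directions at the 2 times, with a log2 ratio of 0.074 at 6 h and -0.13 at 24 h, and counting intervals that excluded a ratio of 1 at both. The difference between the times was not tested, since each rests on 1 library and both share the control. At 24 h the direction turned with total counts and with TPM.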

How the results depend on the processing

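No paired analysis was possible because each group held 1 library, and for the same reason no library could be left out. Of 74 members at 24 h, 5 were at least 2-fold higher and 1 lower. The higher count was 8 with total counts, 11 with TPM, 2 with the length trend removed (3 with 100 bins, added with the data in view), 3 with a minimum of 5 CPM, 3 with CPM + 1 and 18 at a limit of 1.5-fold. Shares of all measured genes were not computed for 100 bins, 5 CPM, CPM + 1 and no minimum CPM. Counts under those settings thus have no background beside them. Tet1 and Hdac11 stayed under 5 CPM, so they were not among the members measured with that minimum. The lower count was 0 with total counts, TPM and either removal of the length trend, and 5 at 1.5-fold. At 1.5-fold, 16.8% and 11.8% of all measured genes were higher and lower at 24 h, against 24.3% and 6.76% of members. At 6 h the higher count was 1 with no minimum CPM (Kdm4d) and 2 at 1.5-fold, in place of 0. Between 6 h and 24 h the higher count of 1 (Tet1) was 0 with CPM + 1 and with either removal of the length trend. It was also 0 with TPM and with a minimum of 5 CPM, where Tet1 fell below the minimum of 1 TPM or 5 CPM. Tet1 was thus not called there, though its ratio in TPM was 2.4. With only members with 30 counts in each library, also added with the data in view, the count was 0. At 1.5-fold it was 3, and 1 was lower.

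The median log2 ratio of all members moved to 0.26 at 6 h and 0.46 at 24 h with TPM, and to 0.031 at 24 h with the length trend removed (0.028 without Tet1). That of demethylases moved to 0.043 at 6 h with the trend removed, or 0.050 with 100 bins, and to 0.75 at 24 h with TPM, and that of methyltransferases to 0.68. The medians of acetyltransferases, sirtuins and bromodomain readers, all within 0.1 of 0, changed sign with total counts and TPM in each comparison, and that of sirtuins was 0.14 at 6 h and 0.17 at 24 h with TPM. Of the 74 members, 51 kept their direction at 24 h under every scaling and both removals of the trend, and 47 at 6 h. The cause of these shifts was not tested. Depth limits Tet1, Hdac11 and Kdm4d, whose counts were 70 or fewer in each library.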
